A study of Mus musculus with 18 samples.

Results

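The genes described here are 8 calcium transporters: the plasma membrane calcium pumps Atp2b1, Atp2b2, Atp2b3 and Atp2b4, the endoplasmic reticulum pump Atp2a2, and the sodium-calcium exchangers Slc8a1, Slc8a2 and Slc8a3. They were taken by gene symbol from a table of 48440 genes. Atp2b4 was picked because its level was lower in high performers of the tissue labelled MDTH, and its relatives were added as its family. The MDTH difference between high and low performers therefore chose the genes, and it is given below as a description with no test. All 8 were expressed well above the filter used for testing, a mean of 10 normalized counts, in each tissue.

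RNA was sequenced from the brains of Diversity Outbred mice, bred so that each has its own mix of the founder strains. High performers of MDTH, low performers of MDTH, high performers of HPF, low performers of HPF, high performers of the prefrontal cortex (PFC) and low performers of PFC gave 3 libraries each. The series compared mice that did well or poorly in short-term memory. No allele or drug was named in the labels, and the animals' age and the memory test are not given in the sources used here. Each library was a bulk tissue sample, in which fewer cells of a type and less RNA per cell cannot be told apart. The labels do not say that the 3 libraries of a group came from separate animals, so a p-value speaks only of the spread among the libraries.

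The deposited values are gene counts that the authors had scaled between libraries, called normalized counts here. Estimated depth was 42940312 to 47535071 reads in MDTH, 76702950 to 88628752 in HPF and 41156443 to 48840131 in PFC. Markers of thalamic relay neurons, 10 genes, summed to 144800 to 345300 normalized counts in MDTH, against 9828 to 25670 in HPF and 7955 to 10870 in PFC. Markers of the hippocampus, 7 genes, summed to 42130 to 55510 in HPF, against 11270 to 16910 in MDTH and 2630 to 5769 in PFC. Markers of cortical excitatory neurons, 9 genes, summed to 114400 to 137300 in PFC, a range that overlapped HPF (78810 to 134200) and lay above MDTH (8204 to 25090). In MDTH and PFC the style of the library names differed between high and low performers in all 12 libraries, and in HPF the letter codes in the names did too (FF and EF in high performers, BA and BD in low performers). Performance cannot be told apart from whatever the naming marks.

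Neurons let calcium in during activity and must remove it afterwards. Plasma membrane pumps use ATP to push calcium out of the cell with high affinity, sodium-calcium exchangers use the sodium gradient to move larger amounts, and the pump encoded by Atp2a2 refills the endoplasmic reticulum. The 4 Atp2b genes encode isoforms that differ in how strongly calmodulin activates them and in where they are made. Slc8a2 is the exchanger best known from brain, Slc8a1 the one best known from heart, and Slc8a3 is made in brain and skeletal muscle.

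Positions are from GENCODE M21 on mouse build GRCm38. Atp2b4 (ENSMUSG00000026463) lies on chromosome 1 from 133699457 to 133801041 on the minus strand. Atp2b1 (ENSMUSG00000019943) lies on chromosome 10 from 98914406 to 99026143, Atp2b2 (ENSMUSG00000030302) on chromosome 6 from 113743831 to 114042613, and Atp2b3 (ENSMUSG00000031376) on chromosome X from 73503086 to 73571005. Atp2a2 (ENSMUSG00000029467) lies on chromosome 5 from 122453513 to 122502225. Slc8a1 (ENSMUSG00000054640) lies on chromosome 17 from 81373105 to 81738377, Slc8a2 (ENSMUSG00000030376) on chromosome 7 from 16129826 to 16161063, and Slc8a3 (ENSMUSG00000079055) on chromosome 12 from 81197915 to 81333180. All 8 are protein coding, and the values are totals per gene, so splice forms were not separated.

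The promoter windows of Atp2b4 and Atp2b1 are shown because these pumps had the largest MDTH differences of the 4 Atp2b genes, in opposite directions. Each window runs from 250 bases before to 50 bases after a transcription start of the RefSeq annotation (GRCm38.p6), is written on the strand of the gene, and has the dinucleotide CG in capitals. The motif searched was CG, which reads the same on both strands.
Atp2b4, chr1:133753698-133753997, minus strand: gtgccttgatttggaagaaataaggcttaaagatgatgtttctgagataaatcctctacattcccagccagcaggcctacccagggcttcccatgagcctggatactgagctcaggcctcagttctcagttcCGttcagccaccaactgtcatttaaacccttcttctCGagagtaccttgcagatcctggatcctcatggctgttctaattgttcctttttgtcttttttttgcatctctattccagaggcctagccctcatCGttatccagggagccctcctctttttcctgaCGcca
Atp2b1, chr10:98914392-98914691, plus strand: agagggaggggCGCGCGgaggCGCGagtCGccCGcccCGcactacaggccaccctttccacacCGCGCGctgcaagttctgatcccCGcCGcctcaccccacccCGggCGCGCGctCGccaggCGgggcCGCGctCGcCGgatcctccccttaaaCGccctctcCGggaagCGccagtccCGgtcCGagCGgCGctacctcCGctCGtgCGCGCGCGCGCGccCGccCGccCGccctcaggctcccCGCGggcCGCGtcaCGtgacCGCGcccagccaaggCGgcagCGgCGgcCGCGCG
The Atp2b4 window held 4 CG and 47.7% G or C, and the Atp2b1 window held 54 CG and 79.3%. Atp2b1 has a second window, not printed, with 45 CG, and the one shown is the more upstream. Over 32851 such windows the median was 7 CG and 52.7% G or C, and 94.6% held at least 1 CG. At least 4 CG were found in 68.6% of windows and at least 54 in 0.3%. The Atp2b4 window lies inside the gene's annotated span, at a start downstream of its outermost one. RefSeq windows were found for 6 of the 8 genes, all but Atp2b3 and Atp2a2. A CG count describes the letters of the window and says nothing about which start these tissues used.

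Atp2b4 was lowest in high performers of MDTH and highest in PFC. In MDTH the high performers had 878, 680 and 699 normalized counts, against 3798, 4978 and 3804 in low performers. Every high library lay below every low library, by a wide margin. High performers averaged 752 ± 109 and low performers 4193 ± 679 (SD, n = 3 each). On the log2 scale this is a difference of -2.47 (SE 0.15), 5.56-fold lower in high performers. This is the value that chose the gene. The difference ran from -2.59 to -2.34 when each library was left out in turn.

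Of the other plasma membrane pumps in MDTH, Atp2b1 and Atp2b2 were higher in high performers and Atp2b3 was lower. Atp2b1, the most widely expressed plasma membrane pump, had 44753, 69547 and 55017 normalized counts in high performers of MDTH, against 29091, 15081 and 14921 in low performers. The groups did not overlap, and replicate 1 of the low group lay above the other low libraries. Its log2 difference was 1.57 (SE 0.28), with means of 56439 ± 12458 in high and 19698 ± 8135 in low-performing mice (SD, n = 3 each). Atp2b2, a pump known from cerebellar Purkinje cells and the hair cells of the ear, had 40580, 45116 and 53156 in high performers, against 35869, 31637 and 26218 in low performers, a log2 difference of 0.57 (SE 0.15) with no overlap. Atp2b3, a pump found mainly in brain, had 4773, 5269 and 5111 in high performers, against 6297, 6406 and 6719 in low performers, a log2 difference of -0.36 (SE 0.07) with no overlap. It was the other plasma membrane pump that was lower in high performers, by far less than Atp2b4.

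Atp2a2 was higher in high performers of MDTH. It had 100966, 110610 and 122307 normalized counts in high performers, against 65154, 46970 and 47840 in low performers. The log2 difference was 1.07 (SE 0.15), which is 2.11-fold higher, and the groups did not overlap. Among the exchangers the differences were small. Slc8a3 had 4272, 5172 and 4804 in high performers, against 3797, 3978 and 3579 in low performers, a log2 difference of 0.32 (SE 0.09) with no overlap. Slc8a1 and Slc8a2 overlapped between the groups, with log2 differences of 0.16 (SE 0.16) and -0.30 (SE 0.13). In all, 6 of the 8 genes had groups that did not overlap in MDTH, where 44.2% of all 17861 genes tested did so. Their median log2 difference was 0.24, beside -0.0031 over all genes.

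**Figure D1:**
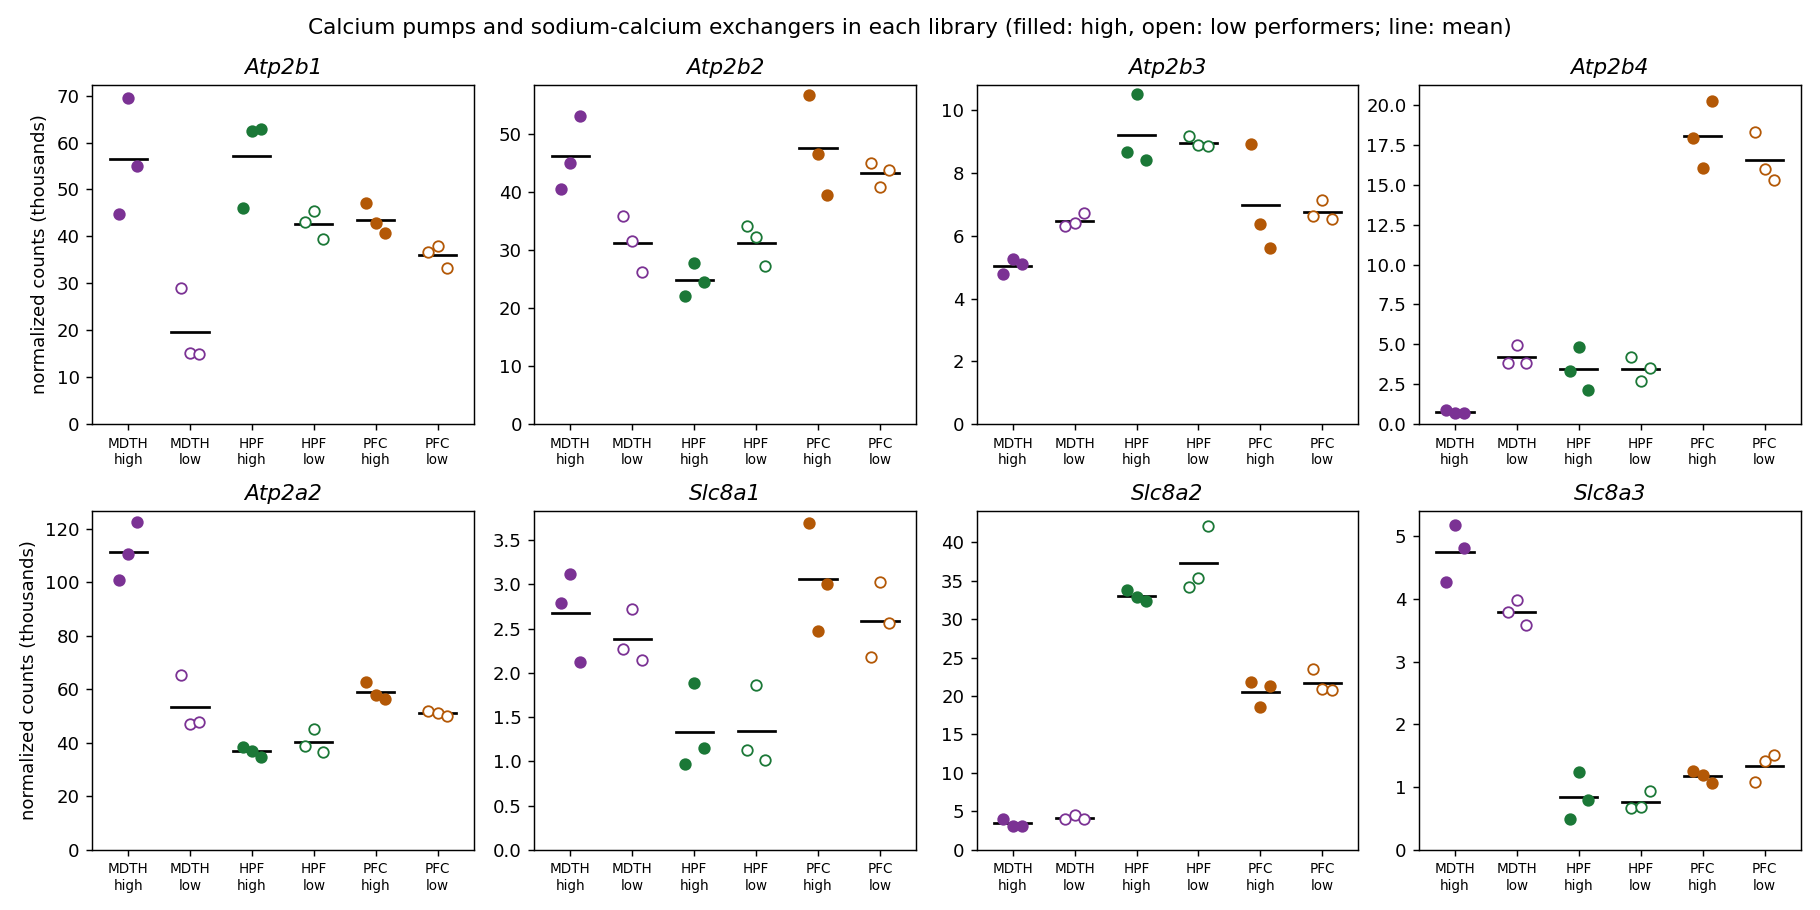
Normalized counts (linear axes from 0) of the 8 genes in each of the 18 libraries, with filled points for high and open points for low performers, and a line at the mean of 3 libraries. Atp2b4 is at most 878 in high performers of MDTH, while Atp2b1 and Atp2a2 in the same libraries lie above the low performers of that tissue.

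Cell type markers differed between the MDTH groups as well, where 12.5% of all genes were higher and 12.5% lower at an adjusted p below 0.05 by limma. Habenular markers, 7 genes, summed to 450, 1671 and 1039 normalized counts in high performers, against 1708, 4806 and 15810 in low performers, and 2 of the 7 were lower and 0 higher. Inhibitory neuron markers, 10 genes, summed to 2360 to 2940 in high performers, against 26450, 8647 and 8143 in low performers, with 4 lower and 0 higher. Thalamic relay markers, 10 genes, summed to 300700 to 345300 in high performers, against 220200, 147100 and 144800 in low performers, with 7 higher and 1 lower. Cortical excitatory markers, 9 genes, summed to 16320 to 25090 in high performers, against 8204 to 15220 in low performers, with none of 8 tested passing by limma and 2 at an unadjusted p under 0.05. Of the other lists, 2 of 8 astrocyte markers (Aqp4 and Gfap), 2 of 6 tested hippocampal markers (Fibcd1 and C1ql2), 1 of 8 oligodendrocyte markers (Mbp) and 1 of 7 choroid plexus markers (Otx2) were lower, and 1 of 8 microglial markers (Cx3cr1) was higher. No habenular, inhibitory or thalamic relay marker was at 0 in any MDTH library. The part of these lists in the differences of the pumps was not tested.

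In PFC and HPF, whose libraries did not enter the choice of the genes, no difference between high and low performers passed for any of the 8 genes. Each tissue was fitted alone over all genes with limma on log2(normalized count + 1), a two-sided test with Benjamini-Hochberg adjustment over all genes, and a gene passed at an adjusted p below 0.05. Such fold changes understate the change of low genes. In PFC 0 of 8 passed by limma, where 5.85% of 17991 genes (1053) did, and 2 had an unadjusted p under 0.05. In HPF 0 of 8 passed by limma, where 0.0166% of 18082 genes did, and again 2 had an unadjusted p under 0.05. The count over all PFC genes rested on single libraries: it was 17 when replicate 2 of the high group was left out, 7 without its replicate 3, 9 without replicate 3 of the low group, and 205 and 278 without replicate 1 of the high and of the low group. The median log2 difference of the 8 was 0.13 in PFC and -0.04 in HPF, beside -0.01 over all genes in each.

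Atp2b4 did not repeat its MDTH pattern in the other tissues. In HPF it had 3356, 4856 and 2104 normalized counts in high performers, against 4190, 2677 and 3537 in low performers. The high libraries spanned the whole range of the low ones. The log2 difference was -0.07 (95% interval -0.78 to 0.64, limma adjusted p = 0.945). In PFC it had 17928, 16060 and 20286 in high performers, against 18346, 16010 and 15281 in low performers, a log2 difference of 0.13 (95% interval -0.14 to 0.39, limma adjusted p = 0.530).

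Atp2b1 was the member with groups that did not overlap in all 3 tissues, each time with the high performers above. In HPF it had 46019, 62506 and 62906 normalized counts in high performers, against 43142, 45426 and 39411 in low performers, a log2 difference of 0.41 (95% interval 0.07 to 0.75, limma adjusted p = 0.317). In PFC it had 47089, 42784 and 40775 in high performers, against 36661, 37934 and 33199 in low performers, a log2 difference of 0.28 (95% interval 0.06 to 0.49, limma adjusted p = 0.123). Neither passed, and groups that did not overlap were found for 20.0% of genes in HPF and 30.9% in PFC. The high libraries carry the name numbers 44, 88 and 165 in every tissue, so the tissues are not independent of each other.

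None of the remaining pumps and exchangers passed in PFC or HPF either. Atp2a2 had 62677, 57713 and 56288 normalized counts in high performers of PFC, against 51944, 51070 and 49930 in low performers, with no overlap (log2 difference 0.21, 95% interval 0.02 to 0.39, limma adjusted p = 0.164). In HPF it was at -0.12 (95% interval -0.38 to 0.13) with overlapping groups. Atp2b2 had 22157, 27857 and 24448 in high performers of HPF, against 34152, 32258 and 27301 in low performers (log2 difference -0.33, 95% interval -0.62 to -0.04, limma adjusted p = 0.335). The sign of the Atp2b2 value in HPF was opposite to that in MDTH. Slc8a2 had 33828, 32900 and 32395 in high performers of HPF, against 34211, 35368 and 42138 in low performers, with no overlap (log2 difference -0.17, 95% interval -0.41 to 0.08, limma adjusted p = 0.530). The other values in PFC and HPF lay between -0.17 and 0.23.

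In HPF the sequencing lanes of the library names were partly tied to performance. The high performers were in lane 3 except replicate 3, which was in lane 4, and the low performers were in lane 5 except replicate 3, also in lane 4. Within lane 4, 1 library against 1, the log2 difference was 0.67 for Atp2b1 and -0.75 for Atp2b4. For Atp2b3, Slc8a1 and Slc8a3 the sign in lane 4 was opposite to that of all 6 libraries, and none of the 8 genes passed with lane as a term in the fit. Cortical excitatory markers summed to 78810 to 94880 in high and 111800 to 134200 in low performers of HPF. Sums were higher in high performers for hippocampal (47200 to 55510 against 42130 to 45750), choroid plexus (7875 to 163000 against 4232 to 6234) and habenular markers (205.5 to 427.3 against 76.48 to 160.5). No marker of these lists passed by limma, and their part was not tested.

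Whether the effect of performance in HPF differed from that in PFC was tested as an interaction over all 18 libraries. By limma 0 of 8 passed, where 9.14% of 18254 genes did, and 1 had an unadjusted p under 0.05. That gene was Atp2b2, with a log2 difference between the effects of -0.46 (95% interval -0.90 to -0.01, limma adjusted p = 0.194). No such test was made against MDTH, because its performance difference chose the genes.

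**Figure D2:**
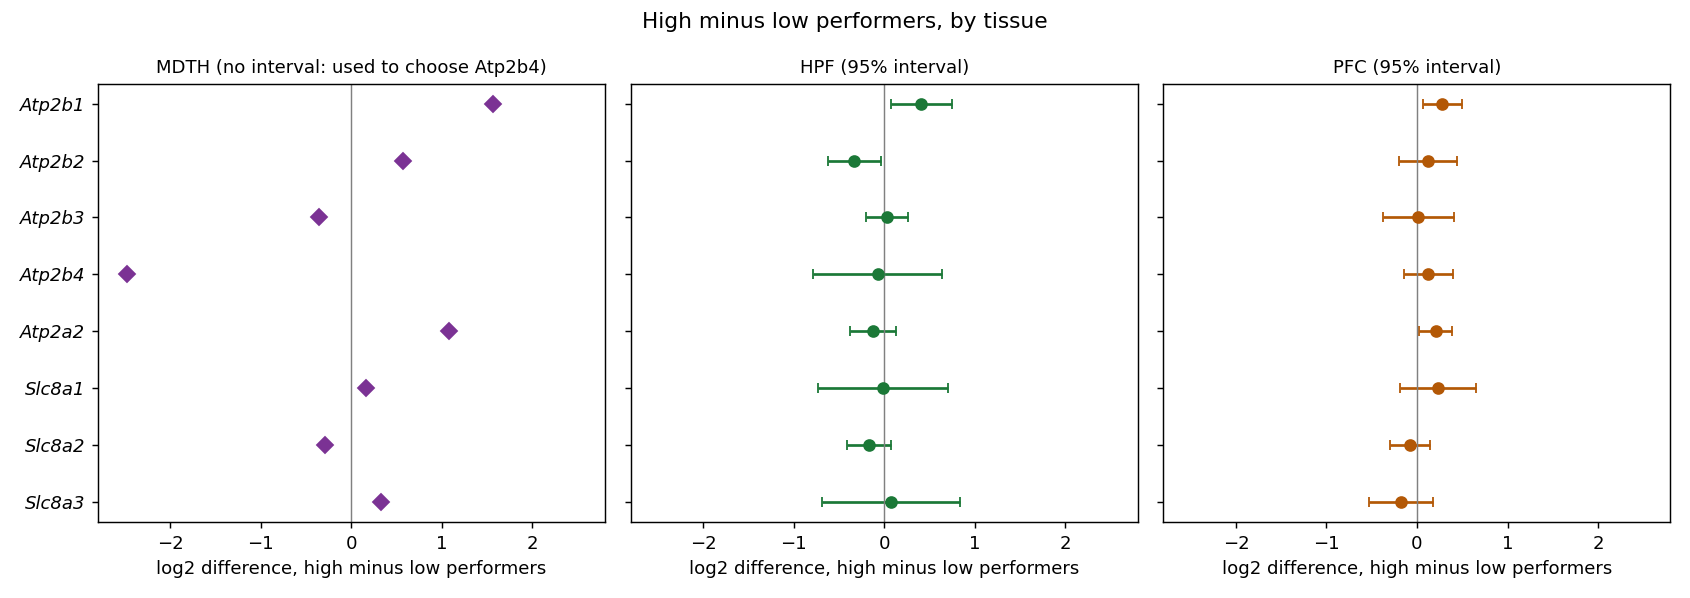
Log2 difference, high minus low performers, of the 8 genes in MDTH, HPF and PFC, as limma estimates with 95% intervals in HPF and PFC and without interval in MDTH. Atp2b4 stands at -2.47 in MDTH and at -0.07 and 0.13 in HPF and PFC, and Atp2b1 is above 0 in all 3 panels.

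Differences between tissues passed for most of the genes. They were tested in a single limma fit to the 18 libraries, as the mean of high and low performers in one tissue minus that in the other. The HPF library names carry lane numbers 3 to 5, and those of MDTH and PFC lane number 1. Estimated depth was also higher in every HPF library than in any of MDTH or PFC. Differences of HPF from MDTH or PFC cannot be told apart from effects of these. Of the 8 genes, 5 passed between MDTH and PFC (2 higher and 3 lower in MDTH), where 40.7% of 18254 genes did, 20.3% higher and 20.4% lower. All 8 passed between MDTH and HPF, 4 higher and 4 lower in MDTH, where 58.1% did (29.1% higher and 29.0% lower), and 7 between HPF and PFC, 2 higher and 5 lower in HPF, where 45.5% did (21.8% higher and 23.7% lower). The median log2 difference of the 8 was -0.25 for MDTH minus PFC, -0.08 for MDTH minus HPF and -0.60 for HPF minus PFC, beside 0.0018, -0.02 and 0.01 over all genes. The MDTH means include the high and low performers whose difference chose Atp2b4. A comparison of low performers alone is therefore not free of that choice either. Among low performers alone, Atp2b2 and Atp2b4 did not pass between MDTH and HPF (limma adjusted p = 0.981 and 0.338). Between MDTH and PFC, Atp2b3 and Atp2a2 did not pass in that setting (limma adjusted p = 0.773 and 0.817). Atp2b1 and Atp2b2 did (limma adjusted p = 0.00392 and 0.0239).

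Atp2b4 was highest in PFC. It averaged 18092 ± 2118 in high and 16546 ± 1601 in low-performing mice of PFC (SD, n = 3 each), above every library of the other tissues. Next came low performers of MDTH at 4193 and the HPF groups, with 3439 ± 1378 for high and 3468 ± 759 for low performers (SD, n = 3 each), which overlapped one another, and high performers of MDTH came last with no overlap. The log2 difference was -3.29 for MDTH minus PFC (SE 0.17, limma adjusted p = 3e-10) and -2.37 for HPF minus PFC (SE 0.17, limma adjusted p = 2.25e-08). For MDTH minus HPF it was -0.92 (SE 0.17, limma adjusted p = 0.000201), but among low performers alone it was 0.29 (limma adjusted p = 0.338). It passed under the other 21 alternatives, but all of them include high performers of MDTH, so they do not bear on that limit. The MDTH mean includes the high and low performers whose difference chose the gene. Among low performers alone the difference to PFC was -1.99 (limma adjusted p = 1.16e-05), but the MDTH low performers also took part in that choice.

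The exchangers Slc8a2 and Slc8a3 had opposite tissue patterns. Slc8a2 had 4065, 3098 and 3092 normalized counts in high performers and 3959, 4557 and 3992 in low performers of MDTH. In HPF its lowest library held 32395 and in PFC 18594, so the tissues did not overlap. On the log2 scale it differed by -3.22 for MDTH minus HPF (SE 0.08, limma adjusted p = 1.23e-13), which is 9.32-fold lower in MDTH, and -2.49 for MDTH minus PFC (SE 0.08, limma adjusted p = 1.6e-12). HPF was higher than PFC by 0.73 (SE 0.08, limma adjusted p = 1.79e-06).

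Slc8a3 was highest in MDTH, where its 6 libraries held 3579 to 5172 normalized counts. In HPF it had 492, 1247 and 798 in high performers and 671, 678 and 929 in low performers. In PFC it had 1260, 1198 and 1065 in high performers and 1080, 1411 and 1510 in low performers. The log2 difference was 2.46 for MDTH minus HPF (SE 0.17, limma adjusted p = 6.2e-09), which is 5.50-fold higher in MDTH, and 1.77 for MDTH minus PFC (SE 0.17, limma adjusted p = 4.57e-07). HPF was lower than PFC by -0.69 on the log2 scale (SE 0.17, limma adjusted p = 0.00343), a call that did not hold among high performers alone (adjusted p = 0.083; 0.000101 to 0.083 over the alternatives).

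Slc8a1 was low in HPF. It had 965, 1889 and 1147 normalized counts in high performers and 1133, 1861 and 1017 in low performers of HPF. All libraries of MDTH, at 2121 to 3113, and of PFC, at 2180 to 3695, lay above these. Its log2 difference came to 0.96 for MDTH minus HPF (SE 0.18, limma adjusted p = 0.000283) and -1.11 for HPF minus PFC (SE 0.18, limma adjusted p = 0.000117). Between MDTH and PFC it was -0.15 (95% interval -0.54 to 0.23, limma adjusted p = 0.543).

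Atp2a2 was highest in MDTH and lowest in HPF. It averaged 111294 ± 10687 in high performers and 53321 ± 10256 in low performers of MDTH, 36807 ± 1880 and 40212 ± 4511 in high and low performers of HPF, and 58893 ± 3354 and 50981 ± 1010 in high and low performers of PFC (SD, n = 3 each). The log2 difference was 0.99 for MDTH minus HPF (SE 0.08, limma adjusted p = 5.79e-08) and -0.51 for HPF minus PFC (SE 0.08, limma adjusted p = 0.000116). For MDTH minus PFC it was 0.48 (SE 0.08, limma adjusted p = 0.000215), and among low performers alone 0.05 (limma adjusted p = 0.817). The other 21 alternatives, which all include high performers of MDTH, kept the call between MDTH and PFC.

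The other plasma membrane pumps differed less between tissues. Atp2b3 was highest in HPF, where its 6 libraries held 8420 to 10520 normalized counts. Its log2 difference was -0.67 for MDTH minus HPF (SE 0.09, limma adjusted p = 1.14e-05) and 0.41 for HPF minus PFC (SE 0.09, limma adjusted p = 0.0014). Between MDTH and PFC Atp2b3 was at -0.25 (SE 0.09, limma adjusted p = 0.0362), a call lost under 10 of 22 alternatives (adjusted p 0.00544 to 0.773). Atp2b2 was lowest in HPF, at -0.70 for HPF minus PFC (SE 0.10, limma adjusted p = 4.8e-05) and 0.45 for MDTH minus HPF (SE 0.10, limma adjusted p = 0.00166). Among low performers alone its MDTH minus HPF value was -0.01 (limma adjusted p = 0.981).

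Calls for Atp2b1 and Atp2b2 also depended on the pairing of libraries and on performance. For MDTH minus PFC, Atp2b2 was at -0.26 (limma adjusted p = 0.0611), and it passed under 5 of 22 alternatives (adjusted p 0.023 to 0.9). Among these were the fit with the name number as a block (adjusted p = 0.046), low performers alone (0.0239) and the fit without replicate 1 of the MDTH low group (0.0317). Atp2b1 was at -0.29 for MDTH minus PFC (SE 0.15, limma adjusted p = 0.143), with 0.35 among high performers and -0.94 among low performers, and it was at -0.45 (adjusted p = 0.00418) without replicate 1 of the MDTH low group. For HPF minus PFC, Atp2b1 was at 0.31 (limma adjusted p = 0.108) and passed with the name number as a block (adjusted p = 0.0395; 0.0122 to 0.391 over the alternatives). For MDTH minus HPF it was at -0.61 (SE 0.15, limma adjusted p = 0.00292), and among high performers alone at -0.03 (adjusted p = 0.935).

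**Figure D3:**
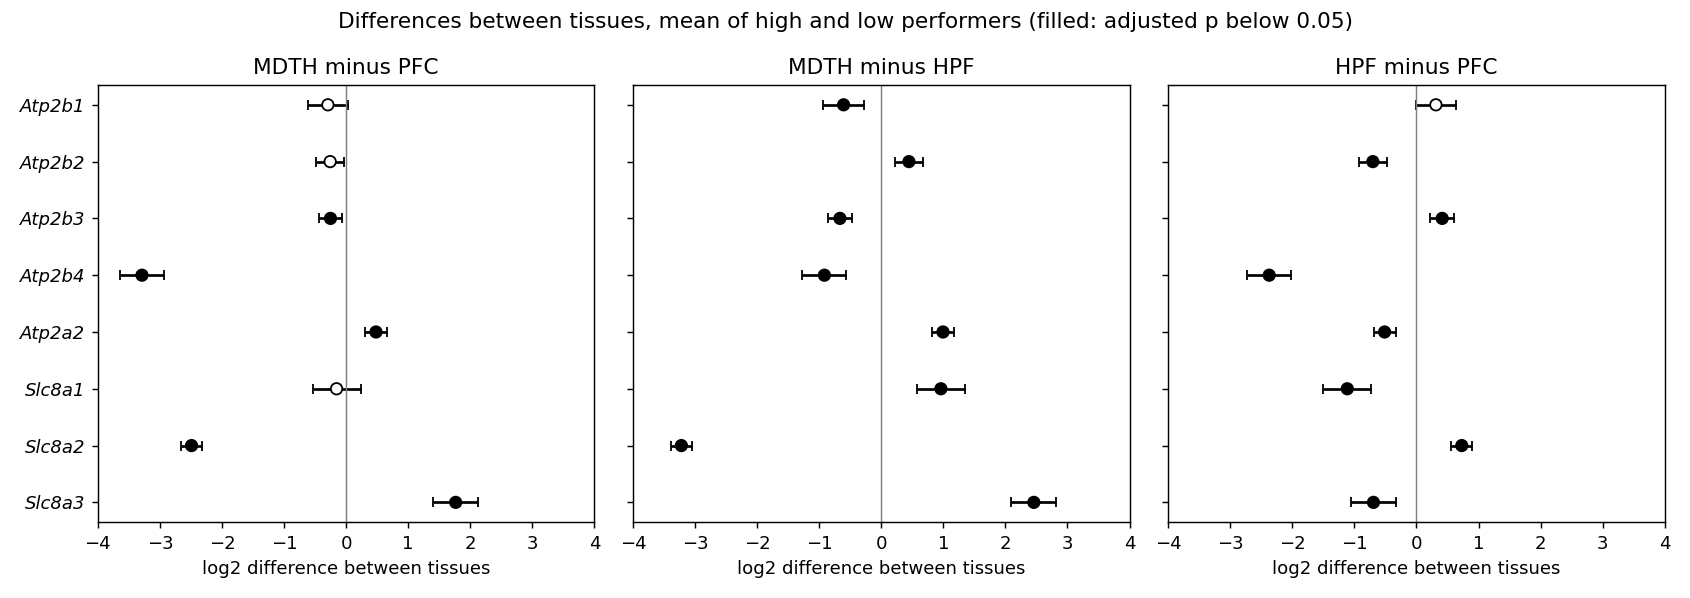
Log2 difference between tissues of the 8 genes, with 95% intervals from a single limma fit to 18 libraries and filled points where the adjusted p was below 0.05. Slc8a2 and Slc8a3 stand on opposite sides of 0 in each panel, and Atp2b4 has its largest value, -3.29, for MDTH minus PFC.

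Levels were compared between genes per kilobase of merged exon, a scale that rests on annotated length and not on the transcripts in use. Atp2a2 was the highest of the 8 in MDTH (13540 ± 5444 normalized counts per kilobase) and in PFC (9034 ± 800), and second in HPF (6333 ± 594; SD, n = 6 each). Slc8a2 was highest in HPF at 6679 ± 681, second in PFC at 4020 ± 302, and sixth in MDTH at 721 ± 111. Slc8a1 had the lowest mean over the 6 libraries of each tissue, at 134 ± 21.7 in MDTH, 71.0 ± 22.5 in HPF and 150 ± 28.5 in PFC. In high performers of MDTH, however, Atp2b4 was the lowest, at 61.4 ± 8.91 per kilobase beside 142 ± 26.9 for Slc8a1 (SD, n = 3).

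The make-up of the plasma membrane pumps differed between groups. As a share of the 4 genes' summed level per kilobase, Atp2b4 made up 0.743% ± 0.218 in high and 6.38% ± 1.45 in low-performing mice, both in MDTH, and 3.54% ± 1.22 in high and 3.82% ± 0.826 in low-performing mice of HPF. In PFC it made up 15.7% ± 3.10 in high and 15.8% ± 0.992 in low-performing mice (SD, n = 3 each). Atp2b1 made up 43.4% ± 4.96 in high and 23.2% ± 5.97 in low-performing mice, both in MDTH. Atp2b3, the shortest by merged exons, made up 12.4% ± 1.10 and 25.1% ± 4.39, and Atp2b2 43.4% ± 4.43 and 45.4% ± 2.24 in the same groups (SD, n = 3 each). The sum of the 4 pumps was 7220 to 9296 per kilobase in high performers of MDTH, against 4764 to 6372 in low performers, with no overlap. In HPF the sum was 6857 to 8895 in high and 6882 to 7788 in low performers, and in PFC 8633 to 10910 and 8256 to 8849.

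Among the exchangers, Slc8a2 made up nearly all of the summed level per kilobase outside MDTH. Its share was 96.5% ± 1.46 in high and 97.1% ± 0.275 in low-performing mice of HPF, and 91.1% ± 0.669 and 91.4% ± 1.71 in high and low performers of PFC (SD, n = 3 each). In MDTH it was 38.6% ± 5.59 in high and 48.6% ± 1.01 in low-performing mice, while Slc8a3 held 53.0% ± 5.62 in high and 43.6% ± 1.24 in low-performing mice (SD, n = 3 each). The sum of the 3 exchangers was 1544 to 1757 per kilobase over the 6 libraries of MDTH and at least 3890 in every library of PFC and 6368 in every library of HPF. Of the 3 exchangers, Slc8a2 was lower in MDTH than in both other tissues, and Slc8a3 was higher.

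**Figure D4:**
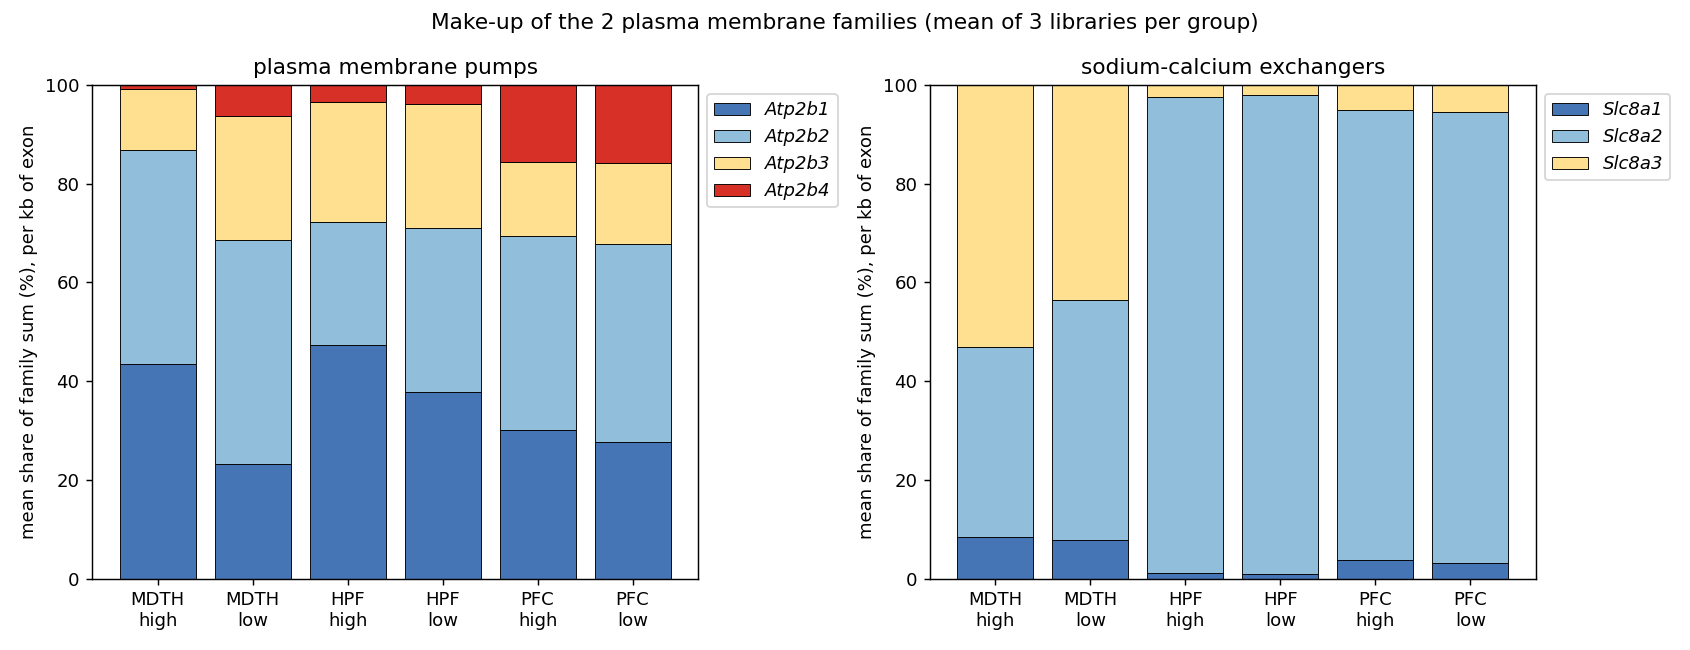
Stacked bars from 0 to 100% give the mean share of each gene in the summed level per kilobase of the plasma membrane pumps (left) and of the exchangers (right), 3 libraries per group. Atp2b4 makes up 0.743% in high performers of MDTH and 15.8% in low performers of PFC, and Slc8a3 makes up 53.0% and 43.6% in high and low performers of MDTH.

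The genes with a profile most like Atp2b4 were found by the root mean square difference between centred log2 values over the 18 libraries, among 15026 named genes. The measure mixes differences between tissues and between performance groups, since libraries of a group share both. The 5 nearest were Gfra2, a receptor for neurturin (0.45 on the log2 scale), Lancl3 (0.50), Gramd2 (0.50), Doc2a, a calcium sensor of neurotransmitter release (0.52), and Vegfd, a growth factor of lymphatic vessels (0.54). The profile of Atp2b4 itself had a root mean square of 1.58. Gfra2 averaged 326 ± 222 in high and 1341 ± 245 in low-performing mice, both in MDTH, 2021 ± 524 and 1340 ± 318 in high and low performers of HPF, and 8736 ± 1441 and 5573 ± 767 in high and low performers of PFC (SD, n = 3 each).

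For the other members the distance is to be read against how far each varies itself, with a root mean square of 1.39 for Slc8a2, 1.07 for Slc8a3, 0.59 for Atp2b1, 0.57 for Slc8a1 and 0.53 for Atp2a2. Slc8a2 was nearest to Fam131a (0.15) and Cnksr2, a scaffold of the postsynapse (0.23). Atp2a2 was nearest to Ttc19 (0.13), an assembly factor of respiratory complex III. Atp2b1 was nearest to Grin2b, a subunit of NMDA receptors (0.22), and Actr3b (0.29). Slc8a1 was nearest to Ptprd, a synaptic adhesion phosphatase (0.23), and Rbbp8 (0.23), and Slc8a3 to Nipal2 (0.29) and Snx8 (0.31). Atp2b2 and Atp2b3 varied too little between the groups for such a search.

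**Figure D5:**
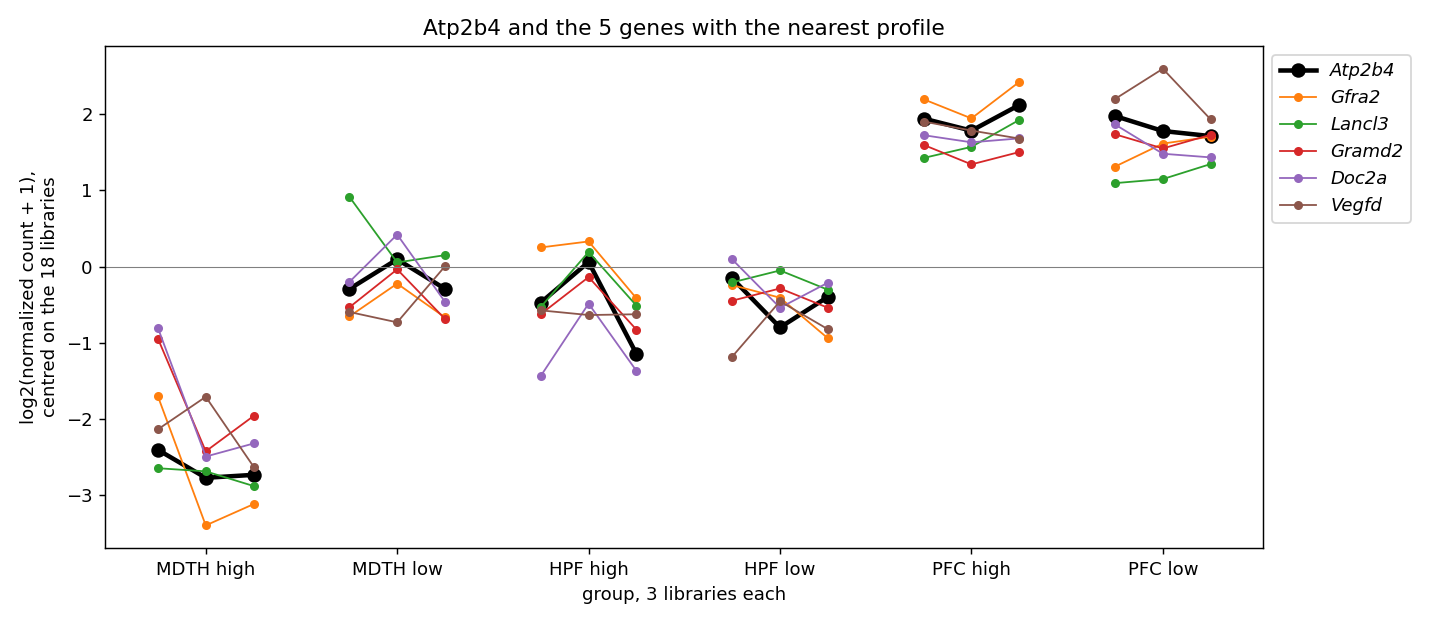
Centred log2(normalized count + 1) of Atp2b4 (black) and its 5 nearest genes in the 18 libraries, grouped by tissue and performance. By group mean, all 6 are highest in PFC and lowest in high performers of MDTH.

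Other genes of calcium transport differed in number between the tissues. In 6 lists of 53 genes, 20 of 50 tested passed in MDTH, 15 higher and 5 lower in high performers, where 25.0% of all genes passed (12.5% higher and 12.5% lower). In PFC 6 of 52 passed, 3 higher and 3 lower, where 5.85% did (3.22% higher and 2.63% lower). In HPF 0 of 52 passed by limma, where 0.0166% of all genes did. An unadjusted p under 0.05 was found for 12 of the 52, and the share of all HPF genes at that level was not counted. The median log2 difference was 0.11 in MDTH, -0.05 in HPF and 0.07 in PFC, beside -0.0031, -0.01 and -0.01 over all genes. The MDTH count was 8 without replicate 2 and 9 without replicate 3 of the high group, and 8 without replicate 2 and 6 without replicate 3 of the low group. The PFC count was 3 without replicate 1 of either group and 0 without replicate 2 or 3 of the high or replicate 3 of the low group.

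Mitochondrial uptake genes made up the largest block in MDTH, with 7 of 10 higher and 0 lower in high performers. Vdac1, a channel of the outer mitochondrial membrane, averaged 29420 ± 1419 in high and 21090 ± 1074 in low-performing mice (SD, n = 3 each, limma adjusted p = 0.00762). Its relative Vdac3 was higher by 0.44 on the log2 scale (limma adjusted p = 0.00992), and Mcu, the pore of the calcium uniporter, by 0.69 (limma adjusted p = 0.0228). Slc8b1, the exchanger of the mitochondrial inner membrane, averaged 232 ± 20.6 in high and 447 ± 67.8 in low-performing mice, both in MDTH (SD, n = 3 each, limma adjusted p = 0.0115). The same gene averaged 162 ± 36.5 in high and 404 ± 36.9 in low-performing mice of PFC (SD, n = 3 each, limma adjusted p = 0.0221).

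Of the store release and entry genes in MDTH, 4 of 13 were higher and 2 lower in high performers. Orai1, the pore of store-operated entry, averaged 264 ± 24.7 in high and 516 ± 27.1 in low-performing mice (SD, n = 3 each, limma adjusted p = 0.00606). Of 5 high-voltage calcium channels, 2 were higher and 1 lower, and Cacna1c, an L-type channel, was higher by 0.86 on the log2 scale (limma adjusted p = 0.00864). Of the pump partners and regulators 1 was lower, Nos1, the neuronal nitric oxide synthase, which binds the pump of Atp2b4 (log2 difference -3.69, limma adjusted p = 0.00192). Of 9 other pumps and exchangers tested, Slc8b1 was lower and Slc24a2, a potassium-dependent exchanger, was higher by 0.95 (limma adjusted p = 0.0198). None of the 6 sodium pump subunit genes tested passed in MDTH by limma, and 2 had an unadjusted p under 0.05.

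In PFC the genes that passed were spread over the lists. Vdac3 was higher by 0.63 on the log2 scale (limma adjusted p = 0.0134). Saraf, an inhibitor of store-operated entry, averaged 12760 ± 621 in high and 7930 ± 593 in low-performing mice (SD, n = 3 each, limma adjusted p = 0.0149), and Tmco1, a calcium leak channel of the endoplasmic reticulum, was higher by 0.45 (limma adjusted p = 0.0482). Atp1b2, a subunit of the sodium pump made by glia, averaged 17090 ± 1066 in high and 29660 ± 1834 in low-performing mice (SD, n = 3 each, limma adjusted p = 0.0118). Cacna1b, the N-type calcium channel, was at -0.47 (limma adjusted p = 0.0467). Some cell type markers were lower in high performers of PFC as well, and their part in these differences was not tested. Of 8 microglial markers 3 were lower and 0 higher (P2ry12, C1qa and C1qb), and their sum was 15000 to 18240 in high and 17910 to 21990 in low performers. Also lower was 1 marker each of the endothelial and mural (Flt1), thalamic relay (Lef1) and cortical excitatory (Tbr1) lists. Choroid plexus markers summed to 1787 to 147800 in high and 4813 to 125400 in low performers. Oligodendrocyte markers summed to 144700 to 320600 in high and 157800 to 516800 in low performers. No marker of these 2 lists passed by limma. Astrocyte markers, 8 genes, summed to 263100 to 297800 in high and 258100 to 287500 in low performers of PFC, and none of them passed by limma, with 1 at an unadjusted p under 0.05.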

How the data were processed

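The table holds 1 column for each of 18 libraries, matched by library name, with 0 columns left unmatched. The authors deposited a signal of scaled gene counts, which their table's title calls normalized counts. The submitters' processing notes name STAR, Salmon and DESeq2 as the authors' tools, with neither version nor role. The labels' protocols give an Illumina TruSeq mRNA preparation that keeps strand. Genome build, gene annotation and whether counting used strand are not given in the sources used here. Of the gene identifiers, 99.2% were found in GENCODE M21, and all 8 members matched. For depth, the commonest value among the lowest ones in a library was read as 1 read. Totals of 50828589 to 59634490 reflect the normalization. Because values are not whole counts, tests that need counts were not run.

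Tests used limma 3.58.1 in R 4.3.3 on log2(normalized count + 1), keeping genes with a mean of at least 10, with a mean-variance trend and Benjamini-Hochberg adjustment over all genes tested. High and low performers were compared in each tissue alone, in MDTH with no test of the 8 members. Tissue differences and the interaction used all 18 libraries and 6 group means. The fits were tested on simulated counts. Python 3.11.15 with pandas 2.3.3, numpy 2.4.6 and matplotlib 3.10.9 prepared tables and figures.

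Libraries that share a name number across tissues deviated together (correlations 0.346 to 0.611 in 11 pairs), so tissue differences were also fitted with that number as a random block (consensus correlation 0.356). The members and lists were chosen with earlier results of these data known. All 8 members are named in every comparison. Of the calcium lists, the 3 genes with the smallest p in each direction were taken per tissue. Mcu and Slc24a2 were added after their values were seen. Nearest genes were the 5 with the smallest difference for Atp2b4 and 2 for members whose group means had an SD over 0.5. Some results that these rules select are not reported here.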

Additional observations from a re-analysis of the deposited data

How the results depend on the processing

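No member passed between high and low performers in PFC or HPF, or in the interaction, under any alternative tried, and members passed numbered 4 to 6 for MDTH minus PFC, 6 to 8 for MDTH minus HPF and 6 to 8 for HPF minus PFC. For the MDTH value of Atp2b4 the range was -2.59 to -2.34. With the replicate number of the titles as a replicate block, calcium list genes passed numbered 9 in MDTH and 0 in PFC, and calls over all genes numbered 2425 in MDTH, 0 in PFC and 0 in HPF, where there were 4470, 1053 and 3 without it. Same-numbered libraries did not deviate together (correlations -0.127 to 0.0923 in 9 pairs), so they share only a number, and the replicate block changed no call of a member. Leaving out 1 library at a time gave 6 to 18 list genes in MDTH, 0 to 6 in PFC and 0 in HPF. With all 18 libraries in 1 fit, calls over all genes were 2529 in PFC and 265 in HPF, against 11 in HPF with no filter, 7 with quantile normalization and 6 with lane as a term, and MDTH minus PFC gave 4805 among low performers.

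Signs that turned were of values that had not passed, except for Atp2b2 and Atp2b4 in MDTH minus HPF among low performers (-0.0052 and 0.29). With lane as a term in HPF, Atp2b3 was at -0.074, Slc8a1 at 0.17 and Slc8a3 at -0.22. Atp2b1 was at 0.35 for MDTH minus PFC among high performers, and the interaction of Slc8a2 at 0.006 with quantile normalization. Leaving out 1 library at a time, Atp2b2 ran from -0.011 to 0.25 and Atp2b3 from -0.18 to 0.16 in PFC. In HPF, Atp2b3 ran from -0.069 to 0.092, Atp2b4 from -0.36 to 0.24, Slc8a1 from -0.29 to 0.25 and Slc8a3 from -0.26 to 0.41. In the interaction, Atp2b3 ran from -0.13 to 0.21, Atp2b4 from -0.49 to 0.12, Slc8a1 from -0.53 to 0.021, Slc8a2 from -0.16 to 0.0068 and Slc8a3 from -0.088 to 0.58. The cause of these changes was not tested. With 3 libraries per group and a 95% interval of -0.78 to 0.64 for Atp2b4 in HPF, changes within that interval are not excluded there.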
